A study of Mus musculus with 4 samples.

Results

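Macrophages, monocytes and dendritic cells are the myeloid cells that engulf debris, sense damage and present antigen inside tumours. The genes described here are 39 that mark these cells or serve in them, picked by symbol from the table of transcript levels. The table held 36 of the 39 among its 14159 genes, and Nos2, Cd207 and Xcr1 are not analysed here. The RNA came from primary squamous cell carcinomas of mice, tumours of squamous epithelium that were not cultured. There were 2 libraries of tumours in which Kdm4a, a gene for a histone demethylase, was knocked out in an inducible manner, and 2 libraries of control tumours. The sources used here do not give the strain, the age, the driver of the tumours, the means of the inducible knockout or whether each library is a separate animal.

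Macrophages depend on the receptor CSF1R and its ligands CSF1 and IL-34, and on the transcription factor PU.1, which Spi1 encodes. Their Fc receptors and receptors such as TREM2 signal through the adaptors FCER1G and TYROBP, which carry ITAM motifs, short tyrosine-containing segments that recruit kinases. Tissue macrophages make much of the complement protein C1q, whose A, B and C chains assemble together. Dendritic cells need FLT3 to develop, and the cross-presenting kind is marked by XCR1, CLEC9A and BATF3. Several of the genes, among them Ptprc, Cd52, Cd53 and Laptm5, are also used by lymphocytes.

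Levels are in FPKM, a fragment count scaled to transcript length and library size, so they can be compared between genes. Each knockout library carries its own number. The control columns share 1 name, so these libraries are called a and b. Kdm4a itself stood at 14.9 and 14.7 FPKM in knockout libraries 1 and 2, against 29.6 and 27.7 FPKM in control libraries a and b (log2 fold change -0.91, SE 0.07, limma adjusted p = 0.00077). Across the libraries the columns summed to between 592281 and 626719 FPKM, and the depth behind the values is unknown.

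Myeloid genes were mostly higher in knockout tumours, by small amounts. Of the 36, 31 had at least 1 FPKM in at least 2 libraries and were tested; 18 were called higher and 1 lower at a limma adjusted p under 0.05, and 12 were not called. Cx3cr1, Cd163, Itgax, Clec9a and Batf3 were too low to test. Among all 12046 genes tested, 30.1% were called higher and 33.8% lower, 63.9% in either direction, so a call by itself was common here. The share of tested members called higher was 58.1%. Their median log2 fold change of FPKM + 1 was 0.42, against -0.03 over all genes tested.

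Both knockout libraries lay above both control libraries for 25 of the 36 genes, and this was so for 39.2% of the genes in the table. For 4 genes, Spi1, Msr1, Arg1 and Batf3, both knockout libraries lay below both controls, which 40.2% of genes did. The other 7 overlapped. In RNA of whole tumours, more cells of a type and more RNA per cell cannot be told apart.

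**Figure D1:**
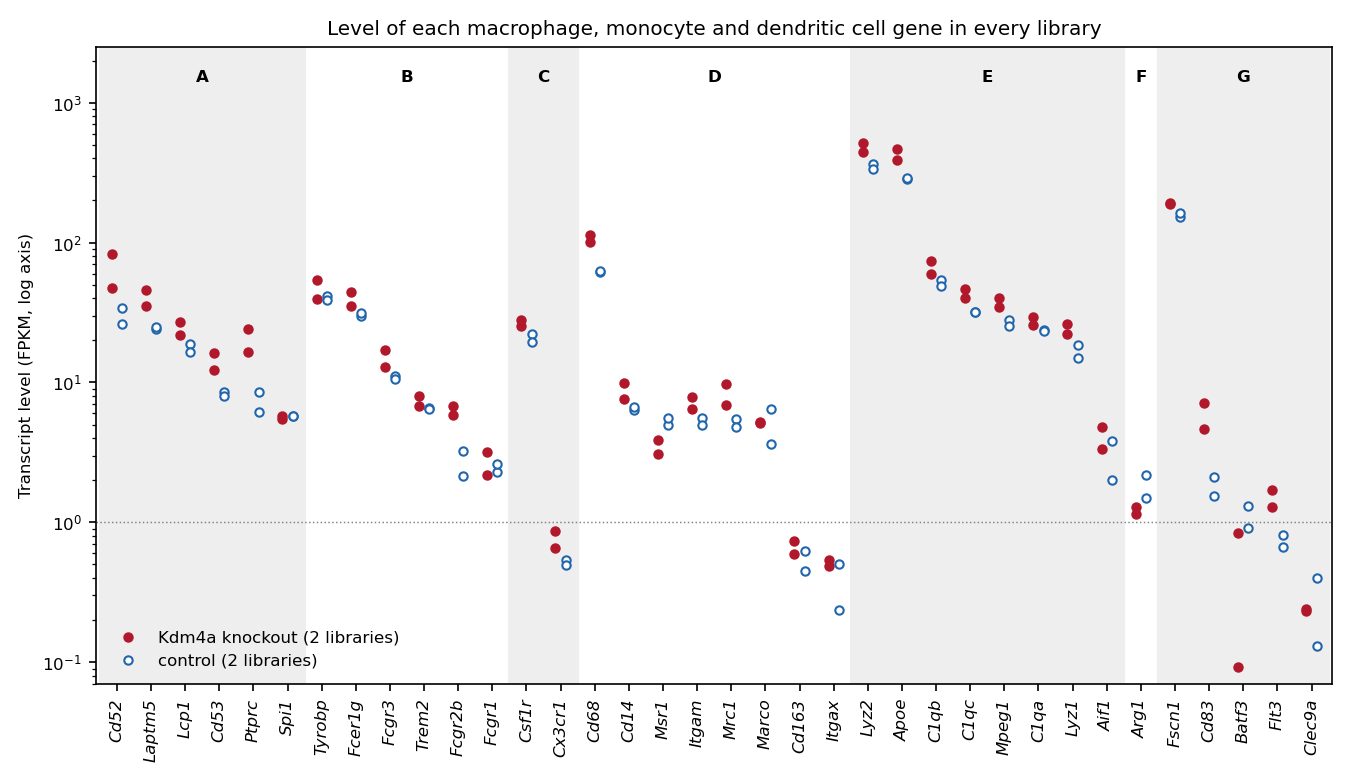
Level of each gene in FPKM on a log axis in the 2 Kdm4a knockout libraries (filled) and the 2 control libraries (open), grouped as pan-leukocyte genes (A), Fc receptors and ITAM adaptors (B), growth factor and chemokine receptors (C), scavenger and pattern receptors and integrins (D), effector products (E), an arginine enzyme (F) and dendritic cell genes (G). Lyz2 and Apoe are the most abundant, with means over the 4 libraries of 415 and 358 FPKM, and the genes under the dotted line at 1 FPKM are the low members.

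The number of calls depended on single libraries. Leaving out control library a, 10 members were called higher (20.5% of all genes), against 8 without control library b (20.2% of all genes). Leaving out knockout library 1, 24 were called higher (30.6%), and 13 without knockout library 2 (30.4%). The median log2 fold change ranged from 0.28 with knockout library 2 left out to 0.57 with knockout library 1 left out. Ptprc, Laptm5, Fcgr2b, Cd68, Apoe and Cd83 were called higher in each alternative fit that tested them. After removal of a trend of the fold change with transcript length, 15 members were called higher and 2 lower, against 31.4% and 30.5% of all genes.

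Reference promoters of these genes were searched for short sequence motifs. Of the 36 genes, 27 had a promoter in the RefSeq table of GRCm38.p6, taken as 250 bases before to 50 after the gene start. PU.1 binds DNA with a purine-rich core, searched here as GAGGAAG on both strands; 10 of the 27 promoters held it (37.0%), against 15.4% of 27025 genes in the table and 16.1% of the 9088 tested genes with a promoter. The interferon response element, searched as GAAANNGAA on both strands, was found in 4 of 27 (14.8%), against 9.76% of all genes and 8.66% of tested genes. Of 15 members called higher, 4 held the PU.1 core, and of 7 tested but not called higher, 5 did. No promoter of the members held both motifs. These matches are letters in a window and do not show that the factor binds there.

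The 6 members with the PU.1 core in the 100 bases before the gene start are shown so that its place can be seen. The sequences run 5′ to 3′ towards the start in the direction of the gene, and capitals mark the match, which reads CTTCCTC where it lies on the opposite strand. Laptm5 and Mrc1 were called higher in knockout tumours, and Fcgr1, Fcgr3, Trem2 and Itgam were not called.
Laptm5, chr4:130913216-130913315, plus strand: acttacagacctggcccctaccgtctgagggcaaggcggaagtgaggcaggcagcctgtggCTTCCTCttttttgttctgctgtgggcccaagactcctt
Mrc1, chr2:14229314-14229413, plus strand: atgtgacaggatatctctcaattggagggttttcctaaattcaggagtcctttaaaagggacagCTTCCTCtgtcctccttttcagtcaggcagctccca
Fcgr1, chr3:96293970-96294069, minus strand: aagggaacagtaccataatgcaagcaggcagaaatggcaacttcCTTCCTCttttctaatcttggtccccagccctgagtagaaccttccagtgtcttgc
Fcgr3 (the first of its starts), chr1:171059404-171059503, minus strand: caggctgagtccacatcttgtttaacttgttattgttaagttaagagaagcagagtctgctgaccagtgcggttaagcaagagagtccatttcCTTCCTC
Trem2, chr17:48346301-48346400, plus strand: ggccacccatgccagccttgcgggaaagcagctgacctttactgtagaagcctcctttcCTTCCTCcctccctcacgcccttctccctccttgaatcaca
Itgam, chr7:128062540-128062639, plus strand: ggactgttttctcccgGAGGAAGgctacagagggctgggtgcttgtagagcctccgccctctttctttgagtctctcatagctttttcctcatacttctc

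The 6 pan-leukocyte genes had the highest median log2 fold change of the roles, 0.70. Of the 6, 5 rose (83.3%), against 30.1% of all genes tested. Ptprc, which encodes the surface phosphatase CD45, stood at 16.5 and 24.3 FPKM in knockout libraries 1 and 2, against 8.60 and 6.14 FPKM in control libraries a and b. Both knockout libraries were above both controls, and library 2 was the highest (log2 fold change 1.34, SE 0.23, adjusted p = 0.00607). On the FPKM scale the knockout mean was 2.76 times the control mean.

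Cd52, a short glycoprotein anchored on leukocytes, had 47.0 and 82.9 FPKM in knockout libraries, against 26.2 and 34.0 FPKM in control libraries (log2 fold change 1.04, SE 0.29, adjusted p = 0.0273). The groups did not overlap, but the knockout libraries were far apart. The call no longer held with control library a left out (adjusted p = 0.0687), with robust eBayes (0.0727) and after removal of the length trend (0.0542). The change was 0.64 with knockout library 2 left out and 1.44 without library 1.

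Cd53, a tetraspanin, had 12.2 and 16.2 FPKM in knockout libraries, against 8.56 and 8.06 FPKM in control libraries. Laptm5, a lysosomal membrane protein of blood cells, had 35.3 and 46.1 FPKM in knockout libraries, against 24.2 and 24.8 FPKM in control libraries. Both rose by 0.70 on the log2 scale (SE 0.15 and 0.14, adjusted p = 0.012 and 0.00908), and the call on Cd53 did not hold with control library b left out (0.0527). Lcp1, which encodes the actin bundler L-plastin, rose by 0.44 (adjusted p = 0.0314; 0.079 with knockout library 2 left out, 0.151 with control library b left out).

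Spi1 was the exception in this role. It stood at 5.46 and 5.71 FPKM in knockout libraries, against 5.75 and 5.78 FPKM in control libraries. The level was almost flat over the 4 libraries, although both knockout values lay just below both controls (log2 fold change -0.04, SE 0.09, adjusted p = 0.733). Quantile normalization turned its sign (0.09, adjusted p = 0.399).

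Of the 6 genes of Fc receptors and their adaptors 2 rose, and the other 4 were not called. The share that rose, 33.3%, was near the 30.1% of all genes tested. Fcgr2b, the inhibitory Fc receptor of myeloid and B cells, had 5.81 and 6.82 FPKM in knockout libraries, against 3.23 and 2.16 FPKM in control libraries. The groups did not overlap, and the knockout mean was 2.34 times the control mean (log2 fold change 0.997, SE 0.18, adjusted p = 0.00659). The activating receptor Fcgr3 had 12.8 and 17.0 FPKM in knockout libraries, against 11.03 and 10.6 FPKM in control libraries. Its log2 fold change of 0.42 was not called (adjusted p = 0.0548), and it passed with knockout library 1 left out (0.61, adjusted p = 0.00513), with quantile normalization (0.0357) and with robust eBayes (0.0391).

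The high-affinity receptor gene Fcgr1 had 2.17 and 3.18 FPKM in knockout libraries, against 2.31 and 2.59 FPKM in control libraries, and the groups overlapped. Its log2 fold change was 0.08 (SE 0.17, adjusted p = 0.697), and it was -0.12 with knockout library 2 left out. Of the summed FPKM of these 3 receptor genes, Fcgr2b made up 27.9% and 25.3% in knockout libraries and 19.5% and 14.1% in control libraries. Fcgr2b and Fcgr3 are alike in part: 166 of 1298 windows of 50 bases in the longest Fcgr3 transcript (12.8%) occur unchanged in Fcgr2b, so their reads can be confused.

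Fcer1g, the adaptor of Fc receptors, had 35.2 and 44.1 FPKM in knockout libraries, against 29.9 and 31.1 FPKM in control libraries (log2 fold change 0.36, adjusted p = 0.0483). This call lay close to the threshold: it was lost with control library a or b left out (adjusted p = 0.159 and 0.114), with no filter (0.0663), with quantile normalization (0.0713), by eBayes without a trend (0.0648) and after removal of the length trend (0.278). Tyrobp, which encodes the adaptor DAP12, had 39.3 and 54.2 FPKM in knockout libraries, against 41.2 and 39.1 FPKM in control libraries. Knockout library 1 lay between the controls and library 2 above them.

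The log2 fold change of Tyrobp was 0.20 (SE 0.16, adjusted p = 0.321). It was 0.42 with knockout library 1 left out (adjusted p = 0.00818), -0.03 with knockout library 2 left out and -0.0023 after removal of the length trend. Trem2, a lipid-sensing receptor that signals through that adaptor, had 7.99 and 6.73 FPKM in knockout libraries, against 6.602 and 6.42 FPKM in control libraries. It was not called (0.15, adjusted p = 0.292), and it passed after removal of the length trend (0.35, adjusted p = 0.0437). Unlike most members it was lower in knockout library 2 than in library 1.

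**Figure D2:**
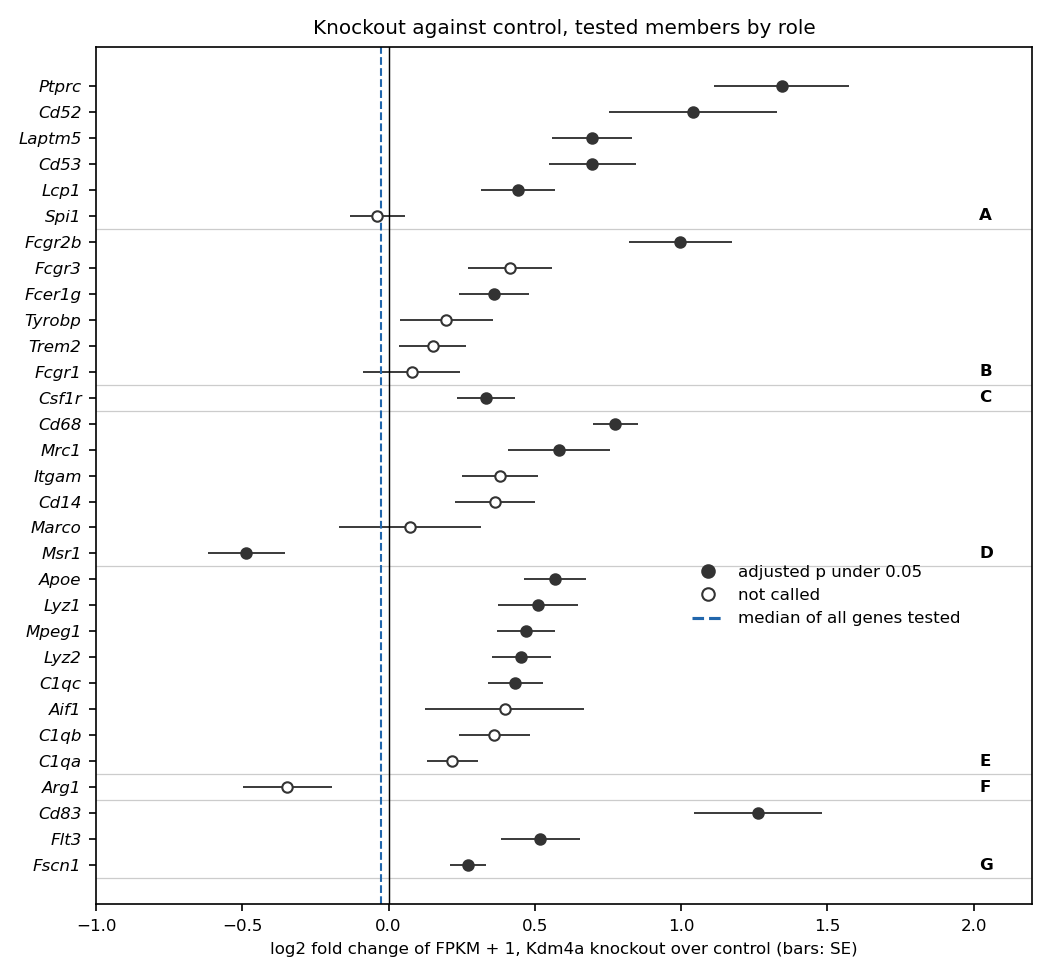
Log2 fold change of FPKM + 1, Kdm4a knockout over control, with limma's SE as bars, for the 31 tested genes, in the same role groups A to G from top to bottom. Filled points passed an adjusted p of 0.05; the values run from -0.49 for Msr1 to 1.34 for Ptprc, and the dashed line is the median of all genes tested at -0.03.

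Csf1r, the receptor on which macrophages depend, rose by a small factor. It had 25.3 and 27.9 FPKM in knockout libraries, against 22.3 and 19.5 FPKM in control libraries. The groups did not overlap, and the knockout mean was 1.27 times the control mean (log2 fold change 0.33, SE 0.10, adjusted p = 0.0333). This call ended with control library a or b left out (0.0589 and 0.22) or knockout library 2 (0.0934). Cx3cr1, the receptor for fractalkine, had 0.653 and 0.872 FPKM in knockout libraries, against 0.541 and 0.498 FPKM in control libraries, and was not tested.

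Of the 6 tested genes of scavenger receptors, pattern receptors and integrins 2 rose (33.3%) and 1 fell. Among all genes tested 30.1% rose and 33.8% fell, so the share that rose was near that of all genes. Cd68, a lysosomal glycoprotein used as a general macrophage marker, had 101 and 113 FPKM in knockout libraries, against 61.3 and 62.3 FPKM in control libraries. Replicates were close and the groups far apart (log2 fold change 0.78, SE 0.08, adjusted p = 0.00124). Msr1, the class A scavenger receptor, had 3.10 and 3.85 FPKM in knockout libraries, against 4.95 and 5.57 FPKM in control libraries. On the log2 scale it fell by 0.49 (SE 0.13, adjusted p = 0.0255), and that did not hold with control library a or b left out (adjusted p = 0.0781 and 0.16) or knockout library 1 (0.0522).

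Marco, another class A scavenger receptor, had 5.15 and 5.23 FPKM in knockout libraries, against 6.49 and 3.61 FPKM in control libraries. The controls enclosed the knockout values (log2 fold change 0.07, SE 0.24, adjusted p = 0.805), and the change was 0.42 with control library a left out, -0.28 without b and -0.06 after removal of the length trend. The haemoglobin scavenger receptor gene Cd163 had 0.593 and 0.735 FPKM in knockout libraries, against 0.446 and 0.626 FPKM in control libraries, and was not tested.

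Mrc1, which encodes the mannose receptor CD206, had 6.87 and 9.68 FPKM in knockout libraries, against 5.47 and 4.80 FPKM in control libraries (log2 fold change 0.58, SE 0.17, adjusted p = 0.0349). Its call ended with control library a or b left out (0.0728 and 0.143) or knockout library 2 (0.0567) and with no filter (0.0523). The endotoxin coreceptor gene Cd14 had 7.66 and 9.83 FPKM in knockout libraries, against 6.38 and 6.69 FPKM in control libraries. It was not called (0.36, adjusted p = 0.0672), and it passed with knockout library 1 left out (0.0103) and with quantile normalization (0.0345).

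Itgam, which encodes CD11b, had 6.42 and 7.89 FPKM in knockout libraries, against 5.52 and 4.97 FPKM in control libraries. Its log2 fold change was 0.38 and its adjusted p 0.0519, just over the threshold, and 7 alternatives brought it under, with adjusted p from 0.0156 to 0.0476. Itgax, which encodes CD11c, had 0.536 and 0.484 FPKM in knockout libraries, against 0.507 and 0.234 FPKM in control libraries, and was not tested.

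Of the 8 genes of secreted and effector products 5 rose (62.5%) and 0 fell, against 30.1% and 33.8% of all genes tested. Their log2 fold changes ran from 0.22 to 0.57. Lyz2, the lysozyme of mouse macrophages, had 443 and 518 FPKM in knockout libraries, against 366 and 334 FPKM in control libraries (log2 fold change 0.45, SE 0.10, adjusted p = 0.0139). Apoe, a lipid carrier, had 388 and 470 FPKM in knockout libraries, against 286 and 290 FPKM in control libraries (0.57, SE 0.11, adjusted p = 0.00759). In both genes the 2 groups were apart. Together they made up 51.5% and 51.4% of the members' summed FPKM in knockout libraries and 51.6% and 50.3% in control libraries.

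That sum was 1614 and 1922 FPKM in knockout libraries, against 1264 and 1239 FPKM in control libraries. The call on Lyz2 was lost with control library b left out (adjusted p = 0.0791), with quantile normalization (0.0746) and after removal of the length trend (0.057). Lyz1, its neighbour and close copy, had 22.2 and 26.3 FPKM in knockout libraries, against 15.04 and 18.5 FPKM in control libraries (0.51, adjusted p = 0.0246; 0.116 with control library a left out, 0.0892 with knockout library 2 left out, 0.0795 after removal of the length trend).

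The lysozyme genes are alike in part, so some of their reads can be confused. Of 1214 windows of 50 bases in the longest Lyz1 transcript, 195 (16.1%) occur unchanged in Lyz2. Lyz1 made up 4.78% and 4.84% of the summed FPKM of the pair in knockout libraries and 3.95% and 5.25% in control libraries, so the split of reads between them did not separate the groups. The likeness reaches the 100 bases before the gene start, where 92 positions are identical. They are shown 5′ to 3′ in the direction of the gene (RefSeq, GRCm38.p6), with the 8 differing positions in capitals.
Lyz1, chr10:117292869-117292968, minus strand: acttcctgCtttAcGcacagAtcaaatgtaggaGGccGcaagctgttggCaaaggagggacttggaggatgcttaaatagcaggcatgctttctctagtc
Lyz2, chr10:117282273-117282372, minus strand: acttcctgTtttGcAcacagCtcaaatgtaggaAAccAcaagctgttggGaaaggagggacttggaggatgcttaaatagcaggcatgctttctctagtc

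The C1q chains stayed near the same proportions. C1qa had 25.8 and 29.3 FPKM in knockout libraries, against 23.5 and 23.5 FPKM in control libraries. C1qb had 59.3 and 73.8 FPKM in knockout libraries, against 53.8 and 48.8 FPKM in control libraries. C1qc had 39.9 and 46.9 FPKM in knockout libraries, against 31.7 and 31.9 FPKM in control libraries. All 3 were above both controls in both knockout libraries.

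C1qc was called (log2 fold change 0.43, SE 0.10, adjusted p = 0.0132), and C1qb (0.36, 0.0504) and C1qa (0.22, 0.0807) were not. The call on C1qc was lost with control library a or b left out (adjusted p = 0.0607 and 0.0587) and after removal of the length trend (0.0613), and those on C1qa and C1qb were gained with knockout library 1 left out (0.0127 and 0.0107). C1qb also passed with a pseudocount of 5 (0.0499), median-ratio scaling (0.0464) and robust eBayes (0.033). The share of C1qa in the FPKM of the 3 chains was 20.6% and 19.5% in knockout libraries, against 21.6% and 22.5% in control libraries, so it was slightly lower in both knockout libraries.

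Mpeg1, which encodes the pore-forming protein perforin-2, had 34.6 and 39.9 FPKM in knockout libraries, against 27.8 and 25.4 FPKM in control libraries (0.47, SE 0.10, adjusted p = 0.0115; 0.0696 with control library b left out). Aif1, which encodes the calcium-binding protein IBA1, had 3.35 and 4.77 FPKM in knockout libraries, against 1.997 and 3.83 FPKM in control libraries. The groups overlapped and it was not called (0.40, SE 0.27, adjusted p = 0.254). Arg1, the arginase of alternatively activated macrophages, had 1.16 and 1.28 FPKM in knockout libraries, against 1.504 and 2.17 FPKM in control libraries. It lay below both controls in both knockout libraries and was not called (-0.35, adjusted p = 0.102), and it passed after removal of the length trend (-0.51, adjusted p = 0.0386).

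The dendritic part of the list was thin. Clec9a had 0.232 and 0.240 FPKM in knockout libraries, against 0.403 and 0.130 FPKM in control libraries, and Batf3, a transcription factor of cross-presenting dendritic cells, had 0.0919 and 0.838 FPKM in knockout libraries, against 0.912 and 1.31 FPKM in control libraries. Neither was tested. Flt3 had 1.29 and 1.70 FPKM in knockout libraries, against 0.812 and 0.665 FPKM in control libraries. It passed the filter through the knockout libraries alone, so it had to differ (log2 fold change 0.52, adjusted p = 0.0229), and its call was lost with control library a or b left out (0.0546 and 0.105) or knockout library 2 (0.0755).

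Cd83, a surface protein of mature dendritic cells and activated B cells, had 4.62 and 7.13 FPKM in knockout libraries, against 1.53 and 2.12 FPKM in control libraries. The groups were well apart, and the knockout mean was 3.21 times the control mean (log2 fold change 1.26, SE 0.22, adjusted p = 0.00614). Fscn1, which encodes the actin bundler fascin of mature dendritic cells, had 191 and 188 FPKM in knockout libraries, against 152 and 161 FPKM in control libraries (0.27, SE 0.06, adjusted p = 0.015; 0.153 with control library a left out, 0.0716 without b). Carcinoma cells can also make fascin, and Fscn1 ranked 3 of 36 members by level, with a mean over the 4 libraries of 173 FPKM, against 1.12 for Flt3 and 0.251 for Clec9a.

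Ratios within a library show how the members stood to each other. Divided by Ptprc in the same library, 32 of the other 35 genes were lower in both knockout libraries than in both controls, 3 (Cd52, Fcgr2b and Cd83) overlapped and 0 were higher. By this ratio 84.7% of all genes were lower and 2.55% higher. Ptprc has the largest log2 fold change of the members tested, so a low ratio to it is common and is not a result about them. Tyrobp was 2.38 and 2.23 times Ptprc in knockout libraries, against 4.79 and 6.37 times in control libraries. Csf1r was 1.54 and 1.15 times Ptprc in knockout libraries, against 2.59 and 3.18 times in control libraries. The median change of the ratio over the 35 genes was 0.491.

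Divided by Csf1r, the members had a median change of 1.07, with changes in both directions, from 0.312 for Batf3, 0.512 for Arg1 and 0.515 for Msr1 to 2.17 for Ptprc and 2.47 for Cd83. Lyz2 was 17.5 and 18.6 times Csf1r in knockout libraries and 16.4 and 17.1 times in control libraries. Tyrobp was 1.55 and 1.94 times Csf1r in knockout libraries and 1.85 and 1.9997 times in control libraries. By this ratio 14 genes were higher in both knockout libraries, among them Ptprc, Cd52, Cd83, Fcgr2b, Cd53 and Laptm5, 5 were lower and 16 overlapped. Of all genes 21.1% were higher by this ratio and 53.5% lower. Spi1 was among the 5, with 0.216 and 0.205 times Csf1r in knockout libraries, against 0.258 and 0.296 times in control libraries. These ratios are descriptions, and no test was made of them.

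**Figure D3:**
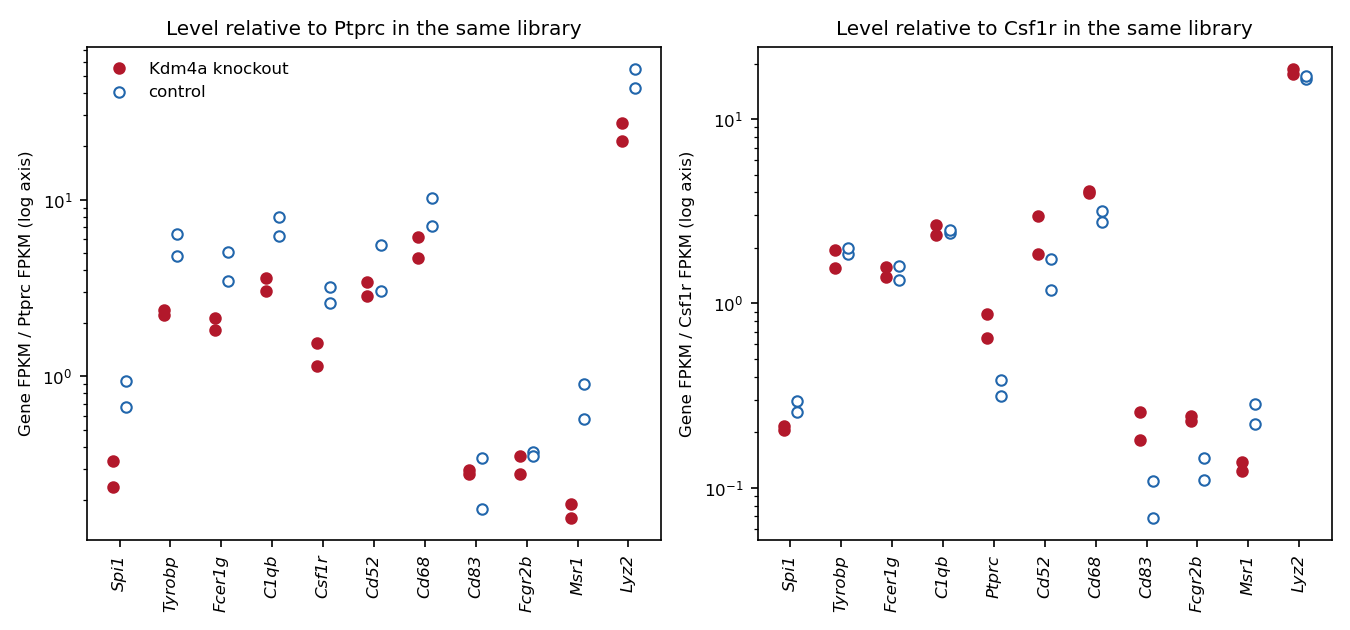
Level of selected genes divided by the level of Ptprc (left) or Csf1r (right) in the same library, on log axes, for the 2 Kdm4a knockout libraries (filled) and the 2 control libraries (open). Relative to Ptprc, Tyrobp is at 2.38 and 2.23 in knockout and 4.79 and 6.37 in control; relative to Csf1r it is at 1.55 and 1.94 in knockout and 1.85 and 1.9997 in control.

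The knockout libraries were not alike. Knockout library 2 held more than library 1 for 33 of the 36 genes and for 29 of the 31 tested, where the median difference on the log2(FPKM + 1) scale was 0.26. Over all genes tested 41.9% were higher in library 2, and the median difference was -0.04. Between the control libraries 17 of 36 members were higher in b, with a median difference of -0.0021. Cd52 (0.80), Ptprc (0.53), Cd83 (0.53) and Tyrobp (0.45) differed most between the knockout libraries among tested members, and Trem2 (-0.22) and Fscn1 (-0.02) were lower in library 2.

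Other genes of these cells, taken from lists that do not overlap with the members, gave a similar range. Of 29 tested macrophage and monocyte genes 13 rose (44.8%) and 4 fell, with a median of 0.37, against 30.1% of all genes higher and 33.8% lower. Among those that rose were Adgre1 (log2 fold change 0.54, limma adjusted p = 0.0136), Cybb (1.43, 0.00488) and Ms4a7 (0.53, 0.00875). Timd4, a receptor for apoptotic cells on resident macrophages, had 2.87 and 3.50 FPKM in knockout libraries, against 0.541 and 0.598 FPKM in control libraries (log2 fold change 1.41, adjusted p = 0.000917), and passed the filter through the knockout libraries alone, so it had to differ. Among those that fell were Maf, Cebpa and Gpnmb, which encodes a glycoprotein of lysosomes (-0.32, adjusted p = 0.0166; 0.0674 with control library a left out, 0.113 without b).

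Maf and Cebpa encode transcription factors of this lineage, and fell by 0.62 and 0.63. The call on Maf was lost with control library a left out (adjusted p = 0.0528) and after removal of the length trend (0.0596), and that on Cebpa with control library a left out (0.0655). Cebpa is made by other cells as well, and whole-tumour RNA does not show which cells made it.

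Leukocyte genes that are not specific to myeloid cells stood higher as a list. Of 15 tested 11 rose (73.3%) and 0 fell, against 30.1% and 33.8% of all genes tested, and the median was 0.82. Was, which encodes a regulator of actin in blood cells, had 3.63 and 3.69 FPKM in knockout libraries, against 1.40 and 1.71 FPKM in control libraries (0.87, adjusted p = 0.00274). Evi2a rose by 0.84 (adjusted p = 0.00561). 

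Of 12 other dendritic cell genes 3 rose (25.0%) and 2 fell, with a median of 0.21. Among all genes tested 30.1% rose and 33.8% fell, so these counts do not set the list apart. The lectin receptor gene Clec10a rose by 0.92 (adjusted p = 0.00391), and Relb, a subunit of NF-kB, fell by 0.98 (adjusted p = 0.000745). The costimulatory receptor gene Cd40, also on B cells, had 2.79 and 8.66 FPKM in knockout libraries, against 1.198 and 0.855 FPKM in control libraries (1.58, adjusted p = 0.0294; 0.0656 with control library b left out, 0.0635 with robust eBayes). Wdfy4, needed for cross-presentation, rose by 0.64 with an adjusted p of 0.0479 that was over 0.05 in 5 alternatives, from 0.0502 to 0.177. Naaa fell by 0.44 (adjusted p = 0.0146; 0.128 with control library a left out, 0.0628 without b).

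Of 8 tested growth factors and ligands 3 rose (37.5%), Il34, Ccl2 and Ccl7, and 2 fell, with a median of 0.36. Among all genes tested 30.1% rose and 33.8% fell. Il34 had 13.6 and 12.001 FPKM in knockout libraries, against 10.2 and 9.67 FPKM in control libraries (0.34, adjusted p = 0.0333), a call lost with control library a or b left out (0.139 and 0.213) and after removal of the length trend (0.143). Csf1 was at 2.34 and 3.22 FPKM in knockout libraries, against 1.78 and 1.95 FPKM in control libraries (0.39, adjusted p = 0.0726), and passed with knockout library 1 left out (0.0199) and after removal of the length trend (0.0384). Flt3l, the FLT3 ligand, was not called (0.20, adjusted p = 0.209), nor was Cx3cl1, the ligand of CX3CR1 (0.38, 0.0643; 0.0175 with knockout library 1 left out and 0.0399 with quantile normalization).

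Csf2, the granulocyte and macrophage growth factor, was listed at 0 in both knockout libraries, against 0.735 and 1.03 FPKM in control libraries, and was not tested. Xcl1, the ligand of XCR1, had 0.208 and 0.432 FPKM in knockout libraries, against 0.901 and 0.419 FPKM in control libraries, and was not tested either. Csf3, the granulocyte growth factor, fell by 0.95 (adjusted p = 0.013; 0.0615 with knockout library 1 left out), having passed the filter through the control libraries alone, and Tgfb1 fell by 0.85 (adjusted p = 0.000766). Monocyte-attracting chemokines in the list were far higher in knockout tumours. Ccl7 had 65.2 and 88.3 FPKM in knockout libraries, against 12.4 and 10.2 FPKM in control libraries (2.65, SE 0.17, adjusted p = 0.000501), and Ccl2 rose by 2.11 (adjusted p = 0.000297).

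Of 9 tested genes of classical activation 7 rose and 0 fell, with a median of 1.84, and 2 of the 9 passed the filter through knockout libraries alone. Tnf had 56.9 and 75.3 FPKM in knockout libraries, against 7.73 and 7.06 FPKM in control libraries (2.99, adjusted p = 0.000366), and Ptgs2, which encodes the inducible cyclooxygenase, had 310 and 305 FPKM in knockout libraries, against 85.5 and 84.4 FPKM in control libraries (1.84, adjusted p = 0.000199). Of 5 tested genes of alternative activation 1 rose, Chil3 (0.60, adjusted p = 0.0056), and 2 fell, Tgm2 (-1.10, adjusted p = 0.0054) and Il4ra (-0.48, adjusted p = 0.0107; 0.124 with control library a left out, 0.0561 without b and 0.101 after removal of the length trend), against 30.1% of all genes higher and 33.8% lower. Epithelial cells also make several of these, Ptgs2 and Tgm2 among them.

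Genes of lysosomes and lipid storage, which macrophages use heavily and other cells share, rose in 9 of 13 (69.2%), with a median of 0.40. The number called lower was 0, and of all genes tested 30.1% rose and 33.8% fell. For 10 of the 13 both knockout libraries lay above both controls and for 3 below, against 39.2% and 40.2% of genes in the table. Plin2, which coats lipid droplets, had 111 and 115 FPKM in knockout libraries, against 45.2 and 46.6 FPKM in control libraries (1.28, adjusted p = 0.000332). The protease gene Ctsd rose by 0.44 (adjusted p = 0.00274).

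Most markers of T and B cells were called higher in knockout tumours as well. Over all genes tested, 30.1% were called higher and 33.8% lower. T cell markers rose in 11 of 11 tested (median 0.93), and their summed level was 50.04 and 51.9 FPKM in knockout libraries, against 22.6 and 17.4 FPKM in control libraries. Of 9 B and plasma cell markers 6 rose and 1 fell, Sdc1 (-0.63), 2 of the 9 having passed the filter through knockout libraries alone, with a median of 1.26 and a median difference of 0.82 between knockout libraries 2 and 1. Their sum, 383 and 401 FPKM in knockout libraries and 506 and 539 FPKM in control libraries, is mostly Sdc1, which epithelial cells also make. Cr2, the complement receptor of B cells, which passed the filter through knockout libraries alone, rose by 1.06 (adjusted p = 0.00354), Cd2 by 1.30 (adjusted p = 0.00132) and Lat by 1.30 (adjusted p = 0.000787).

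Neutrophil markers rose in 6 of 9 tested (66.7%) and fell in 1 (median 0.41), against 30.1% and 33.8% of all genes tested. Of the 9, 1 passed the filter through knockout libraries alone. Neutrophil sums were 283 and 333 FPKM in knockout libraries, against 221 and 202 FPKM in control libraries. S100a8 rose by 0.61 (adjusted p = 0.00463) and Cxcr2 fell by 0.99 (adjusted p = 0.0035). The 2 tested NK and cytotoxic genes rose, Nkg7 by 0.66 (adjusted p = 0.00571; 0.0503 with control library b left out) and Klrd1 by 0.90 (adjusted p = 0.00611), with Klrd1 passing the filter only through knockout libraries. The marker sums were 5.93 and 6.16 FPKM in knockout libraries and 2.65 and 2.42 FPKM in control libraries. Mast cell markers summed to 1.74 and 3.87 FPKM in knockout libraries and 1.01 and 1.14 FPKM in control libraries, and 0 were tested.

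Fibroblast markers rose in 1 of 7 tested (14.3%, against 30.1% of all genes tested), Thy1 (1.04, adjusted p = 0.00539), which T cells also make. Their median was 0.11, and their sums were 31.5 and 37.1 FPKM in knockout libraries and 30.7 and 25.6 FPKM in control libraries; the next smallest p was that of Col1a2 (0.22, adjusted p = 0.272; 0.0462 after removal of the length trend). Both tested endothelial markers rose, Egfl7 by 0.70 (adjusted p = 0.00354) and Pecam1 by 0.52 (adjusted p = 0.042; 0.0517 with knockout library 1 left out, 0.146 without library 2, 0.222 with control library b left out and 0.0615 with no filter). Endothelial sums were 23.9 and 27.6 FPKM in knockout libraries and 15.8 and 16.2 FPKM in control libraries.

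Epithelial markers fell in 5 of 7 tested and rose in 0, against 33.8% and 30.1% of all genes tested. Their sums were 3850 and 3702 FPKM in knockout libraries, against 6243 and 6375 FPKM in control libraries. The keratin genes Krt6a and Krt5 fell by 1.09 (adjusted p = 0.000631) and 0.92 (adjusted p = 0.000873), Sox2 by 0.98 (adjusted p = 0.00122), Krt14 by 0.55 (adjusted p = 0.00286) and Epcam by 0.22 (adjusted p = 0.0315; 0.0509 to 0.262 in 4 alternatives). Salivary gland markers summed to 4853 and 1079 FPKM in knockout libraries, against 6.79 and 37.1 FPKM in control libraries, and all 6 tested rose, 3 of them, Pip included, passing the filter through knockout libraries alone. Pip rose by 5.99 (adjusted p = 0.00074) and Amy1 by 5.01 (adjusted p = 0.00151). Knockout library 1 held more of them than library 2, the other way round from the members. No marker of these lists was at 0 in every library, but neither was any gene of the table, from which low genes appear to have been removed. It therefore does not show that each cell type was detected. The part of these cells in the change of the members was not tested.

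**Figure D4:**
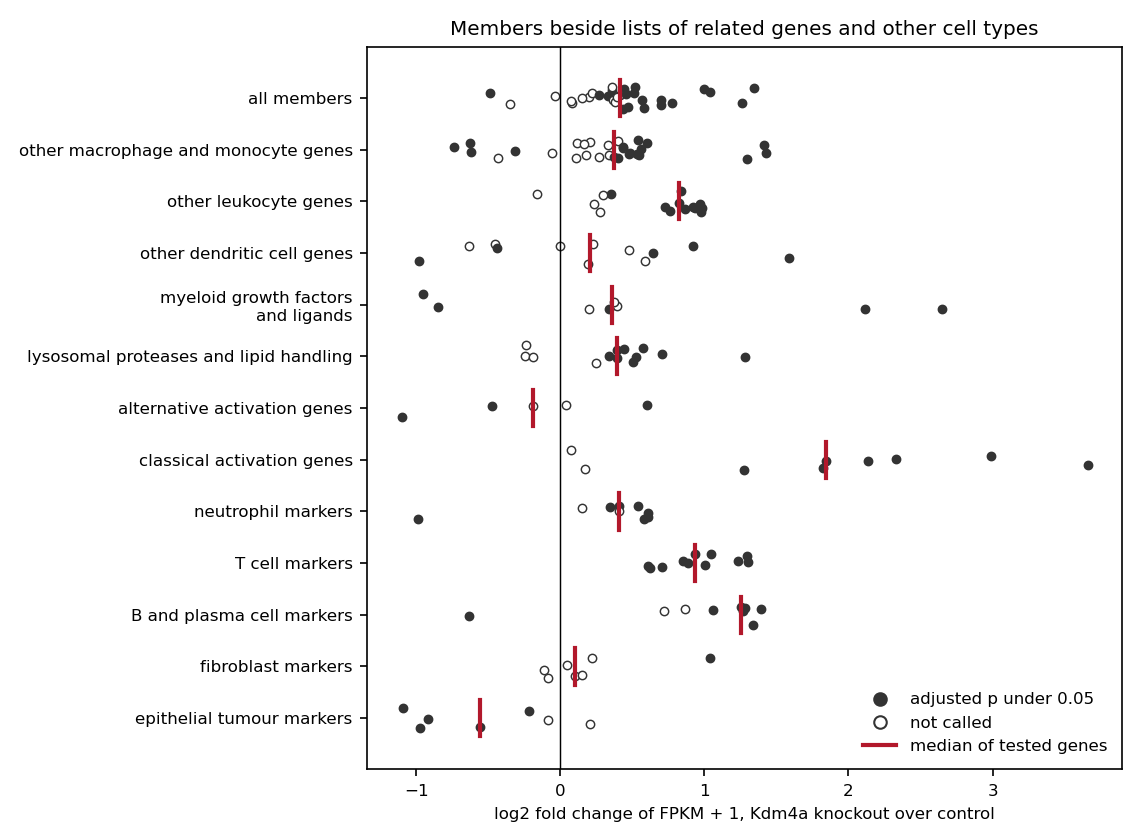
Log2 fold change of FPKM + 1, Kdm4a knockout over control, of each tested gene (points; filled, adjusted p under 0.05) and the median of the list (red bar), for the members and 12 lists of related genes or other cell types; vertical scatter within a row only separates the points. The members' median is 0.42, other macrophage and monocyte genes stand at 0.37, other leukocyte genes at 0.82, T cell markers at 0.93 and B and plasma cell markers at 1.26.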

How the data were processed

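RNA was sequenced in 4 libraries, 2 of Kdm4a knockout and 2 of control tumours. Per the labels' protocols, Trizol was used for extraction and a stranded Kapa kit for libraries of polyadenylated RNA. The submitters' processing notes name TopHat, Cufflinks and the mouse build mm9; versions, annotation and strand setting were not given in the sources used here. All values deposited by the authors were read as FPKM, although the sheet is named for CPM. The columns sum to different totals, and longer transcripts had no higher levels over 14030 genes. The rank correlation of level with length was -0.062 and -0.085 in knockout libraries 1 and 2. In control libraries a and b it was 0.011 and 0.013. The groups thus differed in this, and the cause was not tested. The lowest mean of a gene was 0.25 FPKM, so low genes appear to have been removed by the authors.

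Genes with at least 1 FPKM in 2 libraries were fitted as log2(FPKM + 1) with limma 3.58.1 in R 4.3.3 (lmFit, eBayes with trend, two-sided, Benjamini-Hochberg over all genes tested, threshold 0.05), which had 2 residual and 2.93 prior degrees of freedom. Fold changes on this scale understate the change of low genes. The p-values set the difference between the groups against the spread within them, which limma draws partly from other genes. That spread may be technical. The length trend was a lowess curve (span 0.3) on the longest GENCODE M21 transcript, known for 99.1% of genes. Members and lists were chosen with earlier results of these data known. Named genes are all members, Kdm4a, the 2 tested genes of each list with the smallest p, and the ligands Csf1, Il34, Flt3l, Cx3cl1, Xcl1 and Csf2. Maf, Cebpa, Gpnmb, Il4ra, Cd40, Wdfy4, Naaa, Csf3, Tgfb1, Krt14, Sox2, Epcam, Adgre1, Cybb and Ms4a7 were named after their values were seen. A gene that the rule names is not reported here. A planned comparison of proteins was not run. Promoter sequences are RefSeq's, on GRCm38.p6, not the build of the values.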

Additional observations from a re-analysis of the deposited data

How the results depend on the processing

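No paired analysis was possible because the control columns carry no replicate number of their own. Leaving out 1 library at a time gave 8 to 24 members called higher and 0 to 1 called lower, where the full fit called 18 and 1. The number called lower was 0 with a filter of 5 FPKM, under which Msr1 was not tested, and 2 (Msr1 and Arg1) after removal of the length trend; the cause of the others was not tested. Over all genes, 2437 to 3691 were called higher and 2808 to 4455 lower with 1 library left out, and the members' median stayed between 0.28 and 0.57. The sign turned for Spi1 with quantile normalization (0.0933), for Tyrobp (-0.0023) and Marco (-0.063) after removal of the length trend, for Marco without control library b (-0.28), and for Tyrobp (-0.0302) and Fcgr1 (-0.12) without knockout library 2; none of these was called in either fit. With 1 library left out, Tyrobp ranged from -0.0302 to 0.42, Marco from -0.28 to 0.42 and Fcgr1 from -0.12 to 0.28. The median of the alternative activation genes (-0.19) was 0.0398 with no filter and ranged from -0.41 to 0.0305 with 1 library left out, above 0 without control library a, and that of the other dendritic cell genes (0.21) was -0.44 with a filter of 5 FPKM. A pseudocount of 0.1 changed no member's call. With median-ratio scaling, 3860 genes were called higher and 3932 lower, against 3628 and 4073 as deposited. Leaving out a library left 1 in its group, assumed to vary like the other group. With 2 libraries a group and depth unknown, small changes of low genes could not be resolved.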
